A study of Mus musculus with 24 samples.

Results

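The OAS, IFIT and viperin antiviral effectors are 9 genes among the 12091 genes of the deposited table: Oasl2, Oas3, Rsad2, Cmpk2, Ifit1, Ifit2, Ifit3, Ifih1 and Samd9l. All 9 symbols were found in the table. The list was chosen from measured values, namely the change with inhibition of pleiotrophin (PTN) and the spread between replicates in the 4 experiments. Fold changes, standard errors and whether a member met the limma threshold are therefore given as a description that the choice has shaped, with no p-value printed and no test claimed for a member. The share of all genes stands beside each first count, and nothing is concluded from the counts.

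These genes are induced by type I interferon, which acts on a short element in their promoters, the interferon-stimulated response element. Their products act inside the cell against RNA of viral type: OAS enzymes make oligoadenylates that activate RNase L, viperin makes a nucleotide that ends RNA chains, IFIT proteins hold RNA with foreign ends, and the sensor encoded by Ifih1 starts the interferon response. In breast tumors and cancer cell lines, low-level expression of such genes without infection is well known.

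RNA sequencing values were analysed for 24 samples in 4 experiments, each with 3 control and 3 PTN-inhibited samples. In the 4T1 experiment, cells of the 4T1 mammary carcinoma line were placed in the fourth mammary fat pad of female BALB/c mice aged 8 wk, and treatment began once tumors could be felt. In the *MMTV-PyMT* experiment, tumors arose in FVB/N mice that carry the polyoma middle T antigen under the mouse mammary tumor virus promoter, and treatment ran from 8 to 12 wk of age. Mice of both models received either C44, a mouse IgG control, or 3B10, a monoclonal antibody against PTN given at 15 mg/kg 2 times a week. In the other 2 experiments, E0771 cells, a mammary adenocarcinoma line of C57BL/6 mice, and E0771-LG cells, derived from a lung lesion of E0771, carried shCtrl or shPTN. The shCtrl vector was pLKO.1-puro with a sequence against EGFP, shPTN was 1 shRNA against Ptn, and all infected cells were selected with puromycin. With 1 shRNA per line, an effect of Ptn loss and an effect of that construct or of selection cannot be told apart. In the MMTV-driven model the transgene is expressed mainly in mammary epithelium.

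In GRCm38 with GENCODE M21, where all 12091 gene IDs were found, the members lie on 5 chromosomes. Oasl2 (ENSMUSG00000029561) is at chr5:114896936-114912234 on the plus strand and Oas3 (ENSMUSG00000032661) at chr5:120753098-120777661 on the minus strand. Rsad2 (ENSMUSG00000020641, chr12:26442746-26456452, minus strand) and Cmpk2 (ENSMUSG00000020638, chr12:26469204-26479837, plus strand) are neighbours that point away from each other, with 12751 bases and 0 protein-coding genes between them. The 3 Ifit members share a cluster on chromosome 19. Ifit2 (ENSMUSG00000045932) is at chr19:34550694-34576419, Ifit3 (ENSMUSG00000074896) at chr19:34583531-34588731 and Ifit1 (ENSMUSG00000034459) at chr19:34640871-34650009, all on the plus strand. Their paralogs Ifit1bl1, Ifit3b and Ifit1bl2 lie between Ifit3 and Ifit1 and were not analysed here. Ifih1 (ENSMUSG00000026896) is at chr2:62595798-62646255 and Samd9l (ENSMUSG00000047735) at chr6:3372257-3399572, both on the minus strand. Paralogs of the IFIT and OAS genes are alike in sequence, so reads may be shared or lost between them and single values of these genes are uncertain by an unknown amount.

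Because these genes move together, the 250 bases upstream of their RefSeq start sites (GRCm38.p6) were searched on both strands for the core of the response element, GAAANNGAAA. An exact match was present for 4 of 9 members, against 2.98% of 32851 promoters and 2.61% of the 12034 promoters of genes in the table. For these 4 genes a stretch is shown from 15 bases before the match farthest upstream towards the start site. The last 20 bases before the start site are left out. Stretches run 5′ to 3′ on the strand of the gene, with the matches in capitals, also where the motif is on the other strand. The stretches are chr5:120777680-120777749 (minus strand, 70 bases), chr12:26456473-26456587 (minus strand, 115 bases), chr19:34640770-34640868 (plus strand, 99 bases) and chr19:34583358-34583508 (plus strand, 151 bases).
Oas3: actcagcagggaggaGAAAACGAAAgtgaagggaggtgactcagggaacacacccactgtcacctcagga
Rsad2: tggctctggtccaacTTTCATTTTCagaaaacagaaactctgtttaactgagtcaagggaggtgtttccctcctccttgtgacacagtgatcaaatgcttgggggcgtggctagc
Ifit1: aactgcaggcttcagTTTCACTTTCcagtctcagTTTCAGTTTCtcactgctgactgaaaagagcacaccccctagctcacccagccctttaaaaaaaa
Ifit3: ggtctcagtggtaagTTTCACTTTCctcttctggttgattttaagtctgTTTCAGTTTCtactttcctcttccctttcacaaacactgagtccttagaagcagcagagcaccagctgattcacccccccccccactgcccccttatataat
Ifit1 and Ifit3 each carried 2 exact matches. With 1 mismatch allowed, 8 of 9 members held a match and Cmpk2 held none in this window, against 31.4% of all promoters and 25% of those of genes in the table. The shares count promoters while the members are counted as genes, which favours a gene with more than 1 start. Ifit2 has 2 starts, of which 1 holds the match with 1 mismatch. A match is a description of letters and was not tested as a binding site.

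**Figure D1:**
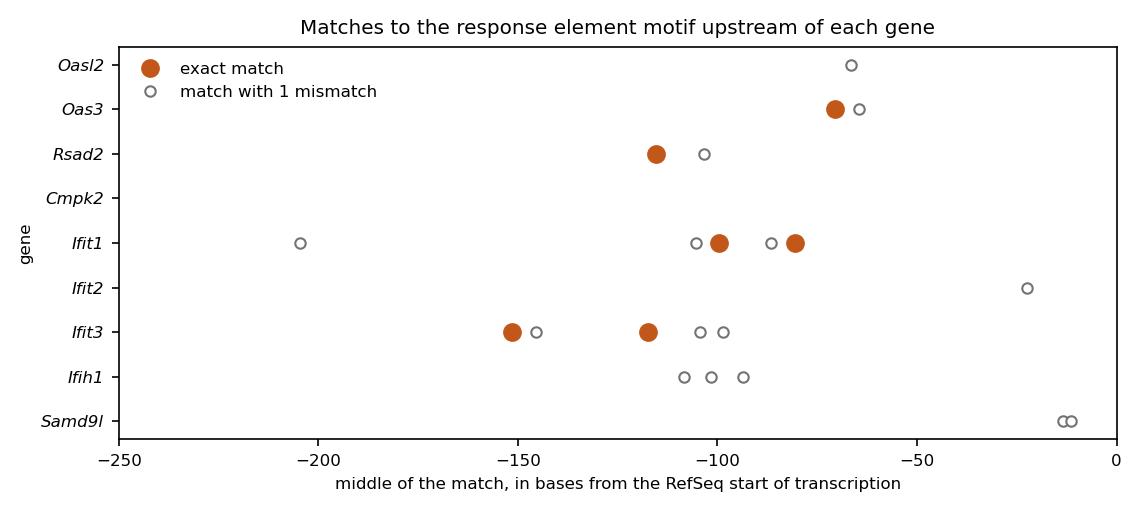
Matches to the response element motif upstream of each member, by the middle of the match in bases from the RefSeq start of transcription. Large filled points are exact matches (4 of 9 genes) and open points are matches with 1 mismatch.

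Depth could be worked back for the 18 samples other than the 4T1 tumors and lay between 15.6 and 21.1 M reads on genes, with a median of 18.2 M. Their values are log2 CPM. The 4T1 values have no steps of single reads, so their depth is unknown, and they were treated as normalized for gene length. In *MMTV-PyMT*, each of the C44 libraries (18.8 to 19.3 M reads) was deeper than each of the 3B10 libraries (16.3 to 18.4 M reads), and the part of depth in the differences was not tested. p-values measure only the spread between these samples, which is the spread between 3 mice or 3 cultures a group.

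Some libraries stood apart in the mean log2 value of the 9 members. In E0771-LG, shCtrl 2 had a mean of 5.39, against 3.81 and 4.13 for the other shCtrl libraries, and was the highest of its group for 9 of 9 members. In E0771, shCtrl 2 had 5.04, against 4.26 and 4.60, and was highest for 8 of 9. In *MMTV-PyMT*, 3B10 tumor 1 had 2.79, against 3.94 and 4.47, and was lowest for 9 of 9, while C44 tumor 3 had 5.25, against 4.44 and 4.11, and was highest for 9 of 9. Among 4T1 tumors, 3B10 tumor 1 had 4.68, against 4.14 and 4.01, and was highest for 8 of 9. Further libraries were lowest of their group for 8 of 9 members: E0771-LG shCtrl 1 (3.81), E0771-LG shPTN 1 (2.22, against 2.85 and 2.96) and 4T1 C44 tumor 3 (4.03, against 4.32 and 4.30). *MMTV-PyMT* 3B10 tumor 3 (4.47) was highest for 7 of 9. The labels leave it uncertain which of the 4T1 3B10 tumors is number 1 and which is number 2, so these numbers could be interchanged. Results are therefore also given without libraries that stood apart.

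**Figure D2:**
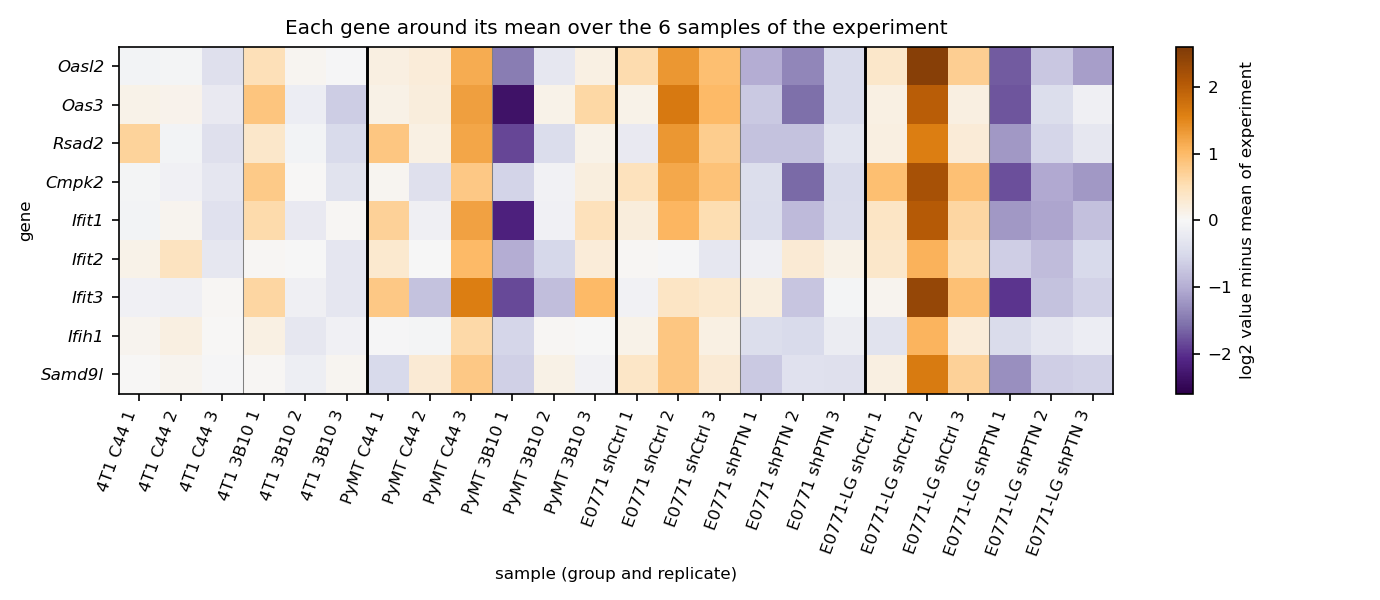
Each member in each of the 24 samples, as the log2 value minus the mean over the 6 samples of the experiment. Columns are samples by group and replicate, and E0771-LG shCtrl 2 and *MMTV-PyMT* 3B10 tumor 1 show high and low values for 9 of 9 genes.

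Ptn itself was measured as a check of the labels. In E0771 it was 2.90, 2.18 and 2.28 log2 CPM with shCtrl and −0.63, 0.25 and 0.53 with shPTN, a fall of −2.40 (SE 0.37, adjusted p = 0.00159 by limma, lower in 3 of 3). E0771-LG had 3.65, 4.51 and 3.74 with shCtrl and 1.42, 0.98 and 1.38 with shPTN, a fall of −2.71 (SE 0.28, adjusted p = 6.30e-05 by limma, lower in 3 of 3). The shCtrl and shPTN samples of both lines went with their labels. In *MMTV-PyMT* tumors Ptn was 2.80, 2.73 and 3.42 with C44 and 3.28, 2.95 and 4.22 with 3B10, a difference of 0.50 (SE 0.37) that did not pass the test. In 4T1 tumors Ptn was near the lowest values, at −0.19, −0.65 and −0.12 with C44 and −0.76, 0.86 and 0.37 with 3B10, and was not tested. An antibody acts on the protein, so the transcript is no check of its effect.

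In E0771 cells with shPTN, 8 of 9 members had a lower mean, against 54.6% of all genes tested, and 7 of 9 lay below every shCtrl sample, against 22.5% of all genes. The limma threshold (adjusted p under 0.05 over 10394 genes) was passed by 7 of 9, all of them lower, against 20.6% of all genes in either direction and 11.7% lower. The 2 that did not pass were Ifit2 and Ifit3. The median log2 fold change of the members was −1.20, against −0.03 over all genes, and −0.89 without shCtrl 2. With both lines in 1 fit 3 members passed in E0771, as Oas3, Rsad2, Ifih1 and Samd9l no longer did.

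In E0771-LG, 9 of 9 members had a lower mean with shPTN, against 46.2% of 10405 genes tested, and 8 of 9 lay below every shCtrl sample, against 26.7%. The threshold was passed by 7 of 9, all lower, against 46.4% of all genes in either direction and 22.1% lower, and the 2 that did not pass were Oas3 and Ifih1. The median was −1.68, against 0.05 over all genes, and −1.28 without shCtrl 2, when 7 members still passed. Without shPTN 1 the count was 4, against 41.2% of all genes.

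In the tumors with 3B10, 0 of 9 members passed the limma threshold in either model, where 0% of all genes tested passed. In *MMTV-PyMT* tumors 9 of 9 had a lower mean, against 39% of 11361 genes, 2 of 9 lay below every C44 tumor (Oasl2 and Rsad2), against 2.27%, and 1 (Rsad2) had an unadjusted p under 0.05, against 2.7%. With voom weights on the recovered reads these counts were 0 adjusted and 2 unadjusted. The unadjusted count was 3 with scaling by median of ratios, and also with the replicate number as a block. With limma the unadjusted count was 0 without C44 tumor 3, 2 without C44 tumor 2 and 5 without 3B10 tumor 3. The median was −1.04, against 0.05 over all genes, −0.43 without 3B10 tumor 1, −0.58 without C44 tumor 3, 0.05 without both, and −1.38 without 3B10 tumor 3. In 4T1 tumors 4 of 9 had a lower mean, against 48.4% of 11467 genes, 1 of 9 (Oasl2) lay above every C44 tumor, against 6.87%, and 0 had an unadjusted p under 0.05, against 6.27%. The 4T1 median was 0.02, against 0.01 over all genes, and ran from −0.14 without 3B10 tumor 1 to 0.29 without 3B10 tumor 3. Only Rsad2, Ifih1 and Samd9l had a lower mean in all 4 experiments. In bulk tumors, fewer cells of a type and less RNA per cell cannot be told apart.

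**Figure D3:**
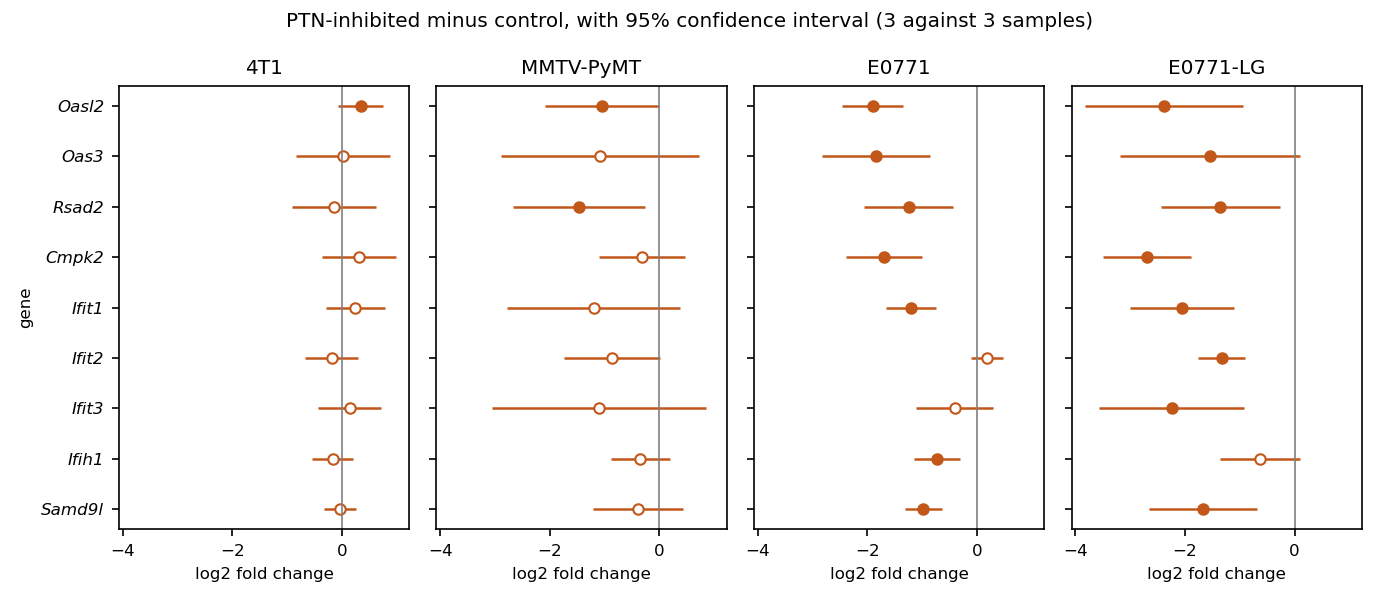
Log2 fold change (PTN-inhibited minus control, 3 against 3 samples) of each member in each experiment, with its 95% confidence interval. Filled points mark genes whose groups do not overlap, 7 of 9 in E0771, 8 of 9 in E0771-LG, 2 of 9 in *MMTV-PyMT* and 1 of 9 in 4T1.

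The OAS family members bind double-stranded RNA and, where active, make the oligoadenylates that switch on RNase L. Oasl2 in E0771 was 3.94, 4.72 and 4.32 log2 CPM with shCtrl and 2.38, 2.01 and 2.89 with shPTN. Its values in E0771-LG were 3.48, 5.64 and 3.87 with shCtrl and 1.42, 2.40 and 2.00 with shPTN. In both lines the groups did not overlap, and E0771-LG shCtrl 2 was far above its group. The difference was −1.91 (SE 0.26) in E0771, which is 3.75-fold lower, and −2.39 (SE 0.59) in E0771-LG, which is 5.24-fold lower. Without shCtrl 2 these were −1.71 and −1.74, and in E0771-LG Oasl2 no longer passed without shPTN 1 (−2.13) or with voom (−2.44). Oas3 in E0771 was 4.50, 6.05 and 5.39 with shCtrl and 3.69, 2.82 and 3.89 with shPTN, a difference of −1.84 (SE 0.42). Its groups were apart, but the spread within shCtrl was 389 to 1350 reads, and it no longer passed without shCtrl 3 (−1.81), shPTN 1 (−1.96) or shPTN 2 (−1.52). In E0771-LG Oas3 was 4.34, 6.18 and 4.35 with shCtrl and 2.43, 3.75 and 4.06 with shPTN, with the groups apart. Its difference of −1.55 (SE 0.66) did not pass the test, but did where eBayes was not robust, and was −0.93 without shCtrl 2.

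In the tumors, Oasl2 in *MMTV-PyMT* was 5.21, 5.28 and 6.19 with C44 and 3.58, 4.77 and 5.20 with 3B10, a difference of −1.04 (SE 0.45). The highest 3B10 tumor lay just under the lowest C44 tumor. Oas3 in *MMTV-PyMT* was 2.51, 2.58 and 3.65 with C44 and 0.02, 2.47 and 2.99 with 3B10, a difference of −1.09 (SE 0.77) with overlapping groups. The value of 0.02 rests on 16 reads in 3B10 tumor 1, and without that tumor the difference was −0.18 for Oas3 and −0.58 for Oasl2. Without C44 tumor 3 these were −0.72 and −0.73, and without 3B10 tumor 3 they were −1.67 and −1.38. In 4T1 tumors Oasl2 was 6.33, 6.35 and 6.00 with C44 and 6.89, 6.45 and 6.37 with 3B10, so each 3B10 tumor lay above each C44 tumor. That difference was 0.35 (SE 0.18), and 0.19 without 3B10 tumor 1. Oas3 in 4T1 differed by 0.02 (SE 0.37), with overlapping groups, by −0.41 without 3B10 tumor 1 and by −0.09 without C44 tumor 3.

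Viperin, the product of Rsad2, is a radical SAM enzyme that turns CTP into a nucleotide that ends RNA chains, and Cmpk2 encodes a nucleotide kinase that supplies CTP. Cmpk2 in E0771-LG was 3.82, 5.06 and 3.79 log2 CPM with shCtrl and 1.08, 1.84 and 1.67 with shPTN. In E0771 it was 3.81, 4.53 and 4.25 with shCtrl and 2.92, 1.74 and 2.85 with shPTN. The groups were apart in both lines, and the lowest shCtrl library of E0771-LG held 244 reads against at most 64 in a shPTN library. The differences were −2.70 (SE 0.36) in E0771-LG, 6.48-fold lower, and −1.69 (SE 0.31) in E0771, 3.24-fold lower, and Cmpk2 passed in each line without any 1 library. Without shCtrl 2 the differences were −2.28 and −1.53.

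Rsad2 in E0771 was 3.95, 5.53 and 4.95 with shCtrl and 3.41, 3.41 and 3.86 with shPTN, so the lowest control was just above the highest shPTN library. In E0771-LG it was 4.43, 5.86 and 4.52 with shCtrl and 3.05, 3.71 and 3.99 with shPTN. The differences were −1.25 (SE 0.35) and −1.36 (SE 0.45). The pass of Rsad2 rested on most single libraries. With voom it was lost in both lines, as it was without the filter on low values in E0771 and with a pseudocount of 1 in E0771-LG. In E0771 it was lost without shCtrl 2 (−0.89), shCtrl 3 (−1.18), shPTN 1 (−1.18), shPTN 2 (−1.17) or shPTN 3 (−1.40). In E0771-LG it was lost without shCtrl 3 (−1.57), shPTN 1 (−1.09), shPTN 2 (−1.42) or shPTN 3 (−1.56), and kept without shCtrl 2 (−0.89). In *MMTV-PyMT* tumors Rsad2 was 4.91, 4.22 and 5.29 with C44 and 2.21, 3.63 and 4.18 with 3B10, a difference of −1.47 (SE 0.52), −0.90 without 3B10 tumor 1 and −1.23 without C44 tumor 3. Cmpk2, its neighbour, was 4.64, 4.19 and 5.42 with C44 and 4.00, 4.50 and 4.78 with 3B10, a difference of −0.32 (SE 0.34) with overlapping groups, −0.11 without 3B10 tumor 1 and 0.01 without C44 tumor 3. In 4T1 tumors the differences were −0.14 (SE 0.33) for Rsad2 and 0.31 (SE 0.29) for Cmpk2, with overlap for both. Rsad2 was 0.16 without C44 tumor 1 and 0.07 without 3B10 tumor 3, and without 3B10 tumor 1 Rsad2 was −0.35 and Cmpk2 −0.01.

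**Figure D4:**
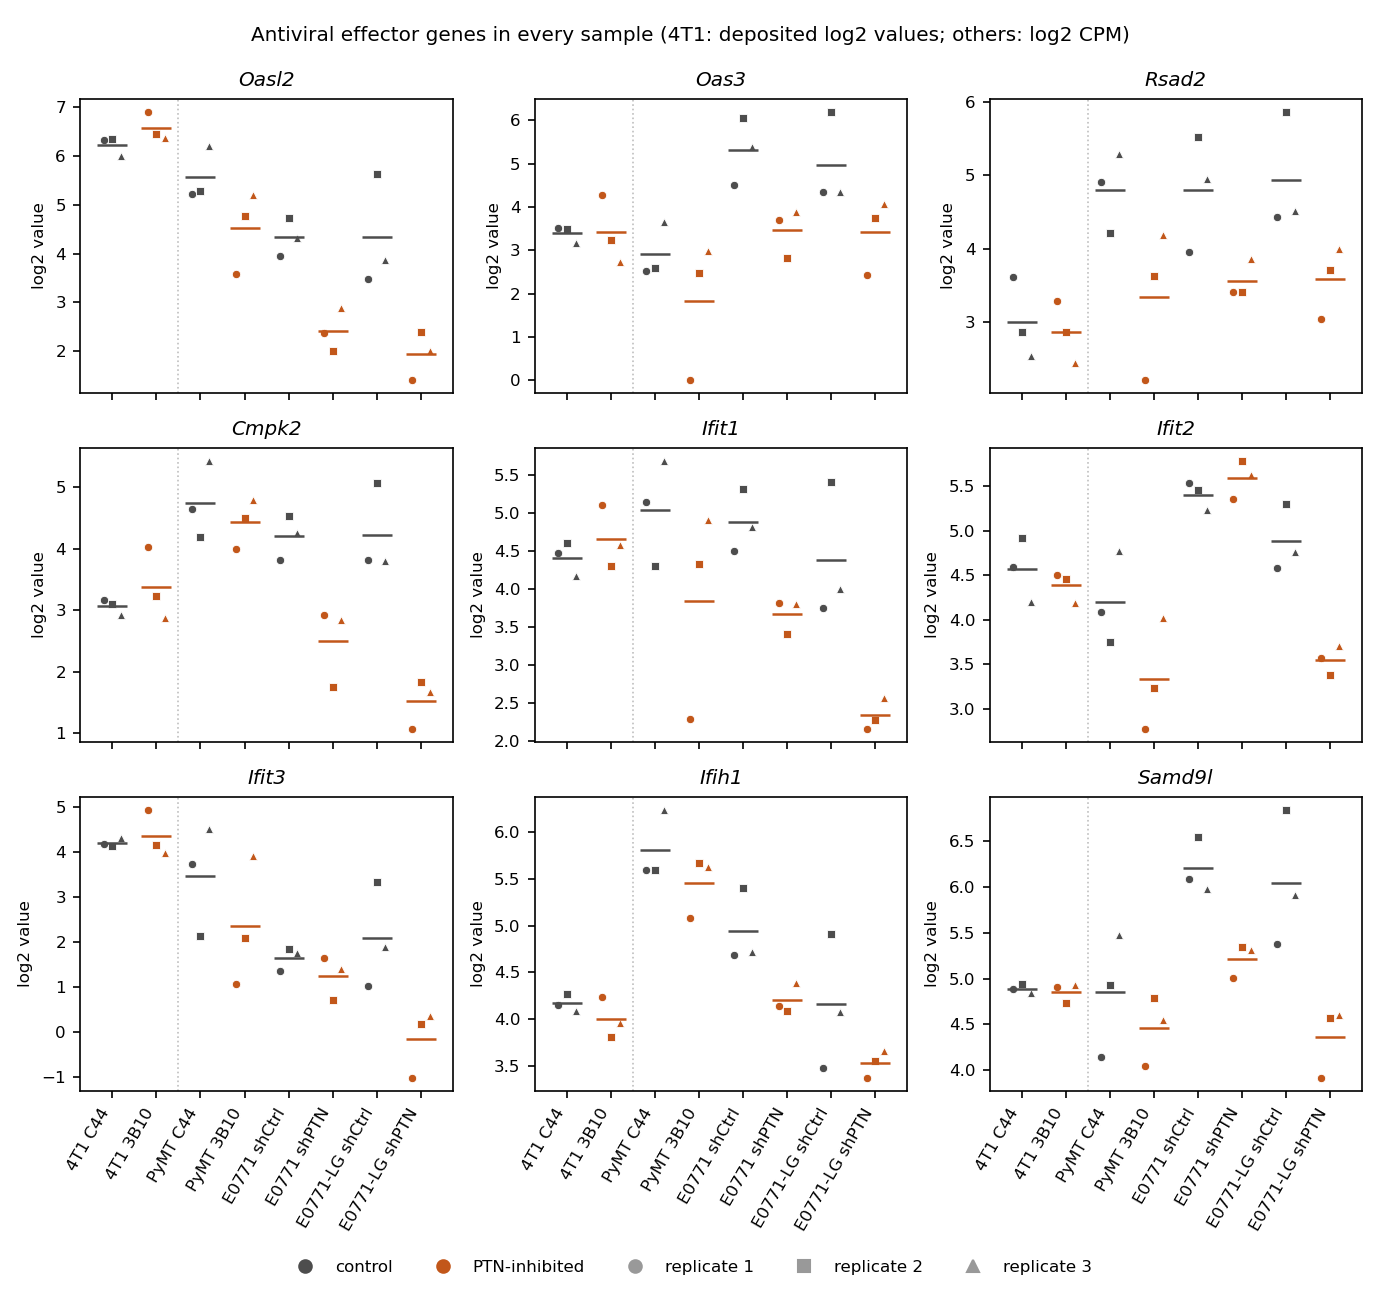
Log2 value of each member in each of the 24 samples, with a line at the mean of each group of 3. Marker shapes give the replicate number, and Cmpk2 in E0771-LG is 3.79 or more with shCtrl and 1.84 or less with shPTN.

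The IFIT proteins bind RNA that lacks the marks of the host cap, with Ifit1 as the RNA-binding member and Ifit2 and Ifit3 as partners in complexes. Ifit1 in E0771 was 4.50, 5.32 and 4.82 log2 CPM with shCtrl and 3.81, 3.41 and 3.81 with shPTN. E0771-LG had 3.75, 5.41 and 4.00 with shCtrl and 2.16, 2.28 and 2.57 with shPTN. The shPTN libraries of each line were close together and below all controls. The differences were −1.20 (SE 0.20) and −2.05 (SE 0.41), or 2.30-fold and 4.15-fold lower. Ifit1 passed in both lines without any 1 library, with −0.98 and −1.54 without shCtrl 2.

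Ifit2 parted from the other members in E0771. It was 5.53, 5.45 and 5.23 with shCtrl and 5.36, 5.78 and 5.62 with shPTN, a difference of 0.18 (SE 0.13) with overlapping groups. In E0771-LG it was 4.58, 5.30 and 4.76 with shCtrl and 3.57, 3.38 and 3.71 with shPTN, a difference of −1.33 (SE 0.19), and −1.12 without shCtrl 2. All shPTN libraries of E0771-LG were below all controls, and Ifit2 passed there without any 1 library. Ifit3 in E0771 was low, with 29 to 73 reads a library, and differed by −0.41 (SE 0.32) with overlap. Without shCtrl 2 the E0771 differences were 0.21 for Ifit2 and −0.31 for Ifit3, and Ifit3 was −0.13 without shPTN 2 and −0.60 without shPTN 1. Ifit2 in E0771 was 0.09 without shPTN 2 or without shCtrl 3, and 0.30 without shPTN 1. In E0771-LG Ifit3 was 1.04, 3.34 and 1.90 with shCtrl and −1.01, 0.18 and 0.37 with shPTN, a difference of −2.25 (SE 0.60), and −1.62 without shCtrl 2. These last values rest on 10 to 22 reads in the shPTN libraries.

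In *MMTV-PyMT* tumors the 3 Ifit members had lower means with 3B10, with overlapping groups for each. Ifit1 was 5.14, 4.30 and 5.68 with C44 and 2.29, 4.32 and 4.91 with 3B10, a difference of −1.20 (SE 0.67), and −0.43 without 3B10 tumor 1. Ifit2 differed by −0.87 (SE 0.38) and Ifit3 by −1.10 (SE 0.83), and without 3B10 tumor 1 by −0.58 and −0.46. Without C44 tumor 3 the 3 differences were −0.88, −0.58 and −0.58, and without 3B10 tumor 3 they were −1.74, −1.20 and −1.88. In 4T1 tumors the differences were 0.25 (SE 0.23) for Ifit1, −0.18 (SE 0.21) for Ifit2 and 0.14 (SE 0.25) for Ifit3, each with overlap. Without 3B10 tumor 1 they were 0.03, −0.24 and −0.14, and Ifit2 was −0.01 without C44 tumor 2. In the other direction, Ifit2 was −0.37 without C44 tumor 3 and Ifit1 was 0.43 without 3B10 tumor 2.

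Ifih1 encodes MDA5, the cytoplasmic sensor of long double-stranded RNA that signals through MAVS. In E0771 it was 4.69, 5.41 and 4.72 log2 CPM with shCtrl and 4.14, 4.08 and 4.38 with shPTN. The groups were apart, by −0.74 (SE 0.19), and Ifih1 no longer passed without shCtrl 2 (−0.50) or without the filter on low values. In E0771-LG it was 3.48, 4.91 and 4.08 with shCtrl and 3.37, 3.55 and 3.66 with shPTN, a difference of −0.63 (SE 0.32) with overlap. That difference was −0.25 without shCtrl 2 and passed without shCtrl 1 (−0.97). It also passed under quantile normalization (−0.77) and with the replicate number as a block. In tumors Ifih1 differed by −0.35 (SE 0.23) in *MMTV-PyMT* and −0.17 (SE 0.16) in 4T1, with overlap in both, and in *MMTV-PyMT* by −0.13 without C44 tumor 3 and −0.16 without 3B10 tumor 1. In 4T1 it was −0.29 without 3B10 tumor 1 and −0.07 without 3B10 tumor 2.

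Samd9l encodes a cytoplasmic factor that restricts poxviruses. It was 6.08, 6.54 and 5.98 log2 CPM with shCtrl and 5.001, 5.34 and 5.31 with shPTN in E0771. The E0771-LG values were 5.38, 6.83 and 5.91 with shCtrl and 3.92, 4.57 and 4.60 with shPTN. All shPTN libraries were below all controls of their line. The differences were −0.98 (SE 0.15) and −1.68 (SE 0.40), and −0.81 and −1.28 without shCtrl 2. Samd9l passed in E0771 without any 1 library, but not with both lines in 1 fit, and in E0771-LG it no longer passed without shCtrl 3 (−1.74) or shPTN 1 (−1.45). In tumors it differed by −0.39 (SE 0.35) in *MMTV-PyMT*, −0.08 without C44 tumor 3, −0.18 without 3B10 tumor 1 and −0.74 without C44 tumor 1, and by −0.04 (SE 0.13) in 4T1, 0.03 without 3B10 tumor 2, with overlap in both models.

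Levels of the members were ordered per length of exons, on the log2 scale. Samd9l had the highest mean in E0771 shCtrl (3.76 ± 0.30, SD, n = 3, log2 CPM per kb) and in E0771-LG shCtrl (3.60 ± 0.74). The next in E0771 shCtrl were Ifit1 (3.47 ± 0.42), within that spread, and Ifit2 (3.43 ± 0.16), just outside it. Ifit3 was the lowest in E0771 shCtrl (0.86 ± 0.26), and Ifih1 in E0771-LG shCtrl (1.13 ± 0.72). In E0771-LG shCtrl, Ifit1 (2.98 ± 0.89) lay within the spread of Samd9l, as did Ifit2 (2.91 ± 0.37). There Ifit3 (1.29 ± 1.16) and Oasl2 (1.66 ± 1.15) lay within that of Ifih1. In E0771 shPTN Ifit2 came first (3.61 ± 0.21) and Oasl2 last (−0.25 ± 0.44), while in E0771-LG shPTN Samd9l stayed first (1.92 ± 0.39) and Ifit3 was last (−0.96 ± 0.75). In E0771-LG shPTN, Ifit2 (1.58) lay within the spread of Samd9l, and Oasl2 (−0.73) and Cmpk2 (−0.53) within that of Ifit3. In *MMTV-PyMT* tumors Ifit1 came first with C44 (3.63 ± 0.69) and Ifih1 (2.43 ± 0.33) and Ifit1 (2.43 ± 1.38) led with 3B10, while Oas3 was last in both groups (0.09 ± 0.64 and −0.99 ± 1.59). In 4T1 tumors, taken as already scaled for length, Oasl2 came first (6.22 ± 0.20 with C44 and 6.57 ± 0.28 with 3B10) and Rsad2 last (3.00 ± 0.55 and 2.86 ± 0.42). With C44, Cmpk2 (3.06 ± 0.13) and Oas3 (3.39 ± 0.20) lay within the spread of Rsad2.

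The effect of shPTN was set against itself between the lines by the interaction term of a limma fit of the 12 cell samples, over 10576 genes. For the members this is a difference of the effects that chose them, in the same samples, so it is a description and no independent test, and no p-value is given. The threshold was met by 1 of 9 members, Ifit2, against 34% of all genes. For Ifit2 the effect in E0771-LG minus that in E0771 was −1.51 (SE 0.25, 95% confidence interval −2.03 to −0.99), with shPTN libraries below the shCtrl mean in 3 of 3 in E0771-LG and 1 of 3 in E0771. Without each of the 12 libraries in turn it was −1.66 to −1.30, and without both shCtrl 2 libraries −1.33. For Ifit3 the difference was −1.84 (SE 0.73), which met the threshold without E0771-LG shCtrl 1 and under quantile normalization, when the count was 2. For Cmpk2 it was −1.002 (SE 0.54), which met it without E0771 shPTN 2, when the count was also 2. For Ifih1, Oas3 and Rsad2 the differences were 0.11 (SE 0.42), 0.30 (SE 0.85) and −0.11 (SE 0.64), with intervals from −0.79 to 1.01, −1.58 to 2.18 and −1.52 to 1.30. For Oasl2, Ifit1 and Samd9l they were −0.48 (SE 0.69), −0.85 (SE 0.51) and −0.69 (SE 0.45). Single libraries set the direction for 4 of these members. It changed for Oas3 without E0771 shCtrl 2, E0771 shPTN 2 or E0771-LG shCtrl 1, 3 or shPTN 3, and for Ifih1 without E0771 shCtrl 2 or E0771-LG shCtrl 1. It changed for Rsad2 without E0771 shCtrl 1, E0771 shPTN 3 or E0771-LG shCtrl 2 or shPTN 1, and for Oasl2 without E0771-LG shCtrl 2.

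The lung-derived and parental lines were also compared with shCtrl alone, in the same fit. The controls are those of the effects that chose the members, so this too is a description with no p-value. Ifit2 was lower in E0771-LG shCtrl by −0.52 (SE 0.17) and Ifih1 by −0.78 (SE 0.29), and these 2 of 9 members met the limma threshold, against 58% of all genes. The Ifit2 libraries of E0771-LG shCtrl were below the lowest E0771 shCtrl library in 2 of 3, and so were those of Ifih1. Both values depended on the normalization and on single libraries. With quantile normalization Ifit2 was −0.28 and Ifih1 −0.47, and neither met the threshold. Ifit2 no longer met the threshold without E0771 shCtrl 1 (−0.46), E0771 shCtrl 2 (−0.50), E0771-LG shCtrl 1 (−0.37) or E0771-LG shCtrl 3 (−0.46). Ifih1 no longer met it without E0771 shCtrl 2 (−0.55), E0771-LG shCtrl 1 (−0.44), E0771-LG shCtrl 3 (−0.75) or E0771 shPTN 1 (−0.78). The count was 0 without E0771 shCtrl 2, E0771-LG shCtrl 1 or E0771-LG shCtrl 3, with 1, 0 and 1 members at an unadjusted p under 0.05 by limma, and 1 without E0771 shCtrl 1 or E0771 shPTN 1. It was 3, with Ifit1 added, without E0771-LG shCtrl 2 (Ifit2 −0.73, Ifih1 −1.16) and without both shCtrl 2 libraries (Ifit2 −0.71, Ifih1 −0.93). The other 7 members differed between −0.49 (Ifit1) and 0.43 (Ifit3), and the direction changed for 6 of them with 1 library left out. These were Rsad2, Cmpk2 and Ifit3 without E0771-LG shCtrl 2, Oasl2, Oas3 and Samd9l without E0771 shCtrl 2, Oasl2 and Samd9l without E0771-LG shCtrl 1, Oasl2 without E0771-LG shCtrl 3, and Rsad2 and Cmpk2 without E0771 shCtrl 1.

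**Figure D5:**
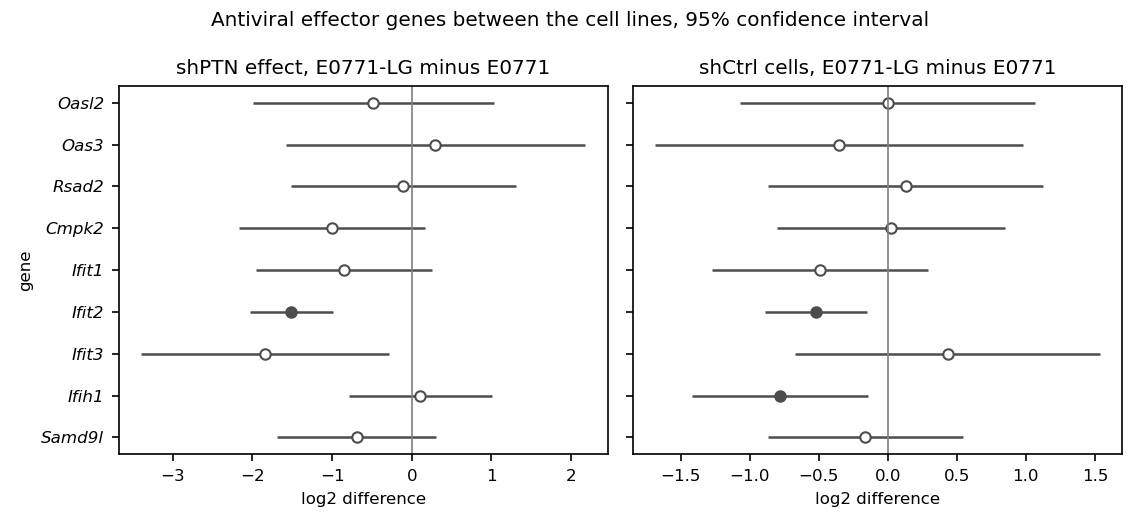
Difference of each member between E0771-LG and E0771, for the shPTN effect (left) and for shCtrl cells (right), in log2 units with 95% confidence intervals. Filled points met the limma threshold, as a description: Ifit2 (−1.51) on the left, and Ifit2 (−0.52) and Ifih1 (−0.78) on the right.

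Other genes of the interferon system were taken from 7 lists of 116 genes, of which the table holds 85. The lists were written with earlier results of these data known, so their counts support no direction. In E0771, 26 of 79 tested genes passed, 23 lower and 3 higher with shPTN, against 20.6% of all genes. In E0771-LG 25 of 79 passed, 22 lower and 3 higher. In either direction this was a smaller share than the 46.4% of all genes. The 22 of 79 that were lower were a larger share than the 22.1% of all genes that passed lower. Blocking on replicate number gave 39 passing genes in E0771-LG, against 48.2% of all genes. The E0771 count was 14 without shCtrl 2, against 12.2% of all genes, and 13 without shCtrl 3, against 11.2%. In the tumors, limma passed 0 of 85 in 4T1 and 0 of 82 in *MMTV-PyMT*, and voom also passed 0 in *MMTV-PyMT*. By limma, 4 of 85 had an unadjusted p under 0.05 in 4T1, against 6.27% of all genes, and 8 of 82 in *MMTV-PyMT*, against 2.7%. The median log2 fold change of the 7 lists together was −0.23 for E0771 and −0.35 for E0771-LG cells, and −0.06 for 4T1 and −0.21 for *MMTV-PyMT* tumors.

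Among OAS and RNase L relatives, 3 of 6 fell in E0771 and 1 of 6 in E0771-LG. Over all genes, 11.7% fell in E0771 and 22.1% in E0771-LG, so several list counts in E0771-LG are near or below the share of all genes. Oas1a fell by 1.08 (SE 0.23) in E0771, and Oasl1, whose product restrains translation of Irf7, fell by 0.82 (SE 0.15) in E0771 and 0.95 (SE 0.22) in E0771-LG. Among IFIT and IFITM relatives, 0 of 2 passed in E0771 by limma (0 unadjusted) and 1 of 2 in E0771-LG, where it was higher. The most abundant of this list, Ifitm3, a membrane protein that blocks virus entry, was 6.97 ± 0.26 log2 CPM in E0771 shCtrl and 6.89 ± 0.61 in shPTN (SD, n = 3). Among RNA and DNA sensors and adaptors, 5 of 14 fell in E0771 and 7 of 14 in E0771-LG. Ddx58, which encodes the RNA sensor RIG-I, fell by 0.92 (SE 0.17) and 1.02 (SE 0.25), and Tlr3, an endosomal sensor, by 0.87 (SE 0.18) and 1.21 (SE 0.17). Trim25, which encodes a ubiquitin ligase of RIG-I signalling, fell by 1.05 (SE 0.12) in E0771-LG. The genes said here to have fallen passed without any 1 library, but Oas1a in E0771 did not with both lines in 1 fit. Over all lists, the passing genes of largest change numbered 17 in E0771 and 15 in E0771-LG. Of these, 6 and 8 lost the pass in a fit without 1 library, and their changes are not given here.

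Among interferon receptors and signalling factors, 6 of 15 fell in E0771, against 11.7% of all genes, while 2 of 15 fell, against 22.1%, and 1 rose in E0771-LG. In E0771, Irf8 fell by 2.08 (SE 0.37), Irf7, an amplifier of interferon production, by 1.21 (SE 0.24) and Stat2 by 0.62 (SE 0.14). In E0771-LG, the kinase gene Jak1 fell by 0.53 (SE 0.10) and Irf3 rose by 0.57 (SE 0.13). Among negative regulators of interferon signalling, 2 of 7 passed in each line, 1 lower and 1 higher. Ptpn6, which encodes the phosphatase SHP-1, rose by 0.99 (SE 0.17) in E0771. Among other interferon-stimulated genes, 8 of 35 fell and 2 rose in E0771, and 11 of 35 fell in E0771-LG. In E0771, Ifi204 fell by 1.03 (SE 0.15), Parp14 by 1.01 (SE 0.19) and Helz2 by 0.88 (SE 0.16), and in E0771-LG Ifi44 fell by 2.22 (SE 0.63). Each gene named here passed without any 1 library, but Irf7, Stat2, Ifi204, Parp14 and Helz2 in E0771 did not with both lines in 1 fit, and Ifi44 in E0771-LG did not with voom. Of the 21 interferon ligand genes listed, 0 are in the table, and they were not analysed here.

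In the tumors, where 0 genes of these lists passed by limma, genes were named by level, from the 2 of highest mean of each list. In 4T1 tumors Bst2, which tethers virus particles, was 9.87 ± 0.01 with C44 and 9.85 ± 0.49 with 3B10 (log2, SD, n = 3). In *MMTV-PyMT* tumors Oas2 was 4.83 ± 1.02 with C44 and 4.06 ± 1.46 with 3B10 (log2 CPM, SD, n = 3), and Trim25 was 7.57 ± 0.17 and 7.63 ± 0.15. The groups overlapped for each of these genes. They did not for Socs3, 1 of the 2 of highest mean among negative regulators in 4T1, at 6.53 ± 0.13 with C44 and 6.12 ± 0.15 with 3B10, which had an unadjusted p under 0.05 and did not pass.

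Of the passing pathway genes of largest change, 17 in E0771 and 15 in E0771-LG, 5 met the threshold of the same interaction term. Oasl1, Ddx58, Tlr3 and Ptpn6 are in both sets. The 5 genes are a smaller share than the 34% of all genes that met it. They were named for a large change in 1 of the lines, which favours a difference between the lines in the same samples, so no p-value is given. The effect in E0771-LG minus that in E0771 was 2.08 (SE 0.59) for Irf8, 0.93 (SE 0.18) for Irf3, −0.74 (SE 0.14) for Trim25 and −0.57 (SE 0.14) for Jak1, and these 4 met it without each of the 12 libraries. For Ifi47, which encodes an immunity GTPase, it was −2.10 (SE 0.72). Without both shCtrl 2 libraries the Ifi47 value was −1.87 and did not meet the threshold. Ifi47 did not meet it without E0771 shCtrl 1 (−1.90), E0771 shCtrl 3 (−2.09), E0771 shPTN 2 (−1.93), E0771 shPTN 3 (−2.22), E0771-LG shCtrl 2 (−1.68), E0771-LG shPTN 1 (−1.70) or E0771-LG shPTN 3 (−1.84), a set of 7 of 12.

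The 9 members varied together from sample to sample, also within groups. With each value centred on the mean of its group of 3, 36 of 36 pairs of members had a Pearson r above 0 over the 24 samples, from 0.52 (Cmpk2 and Ifit2) to 0.91 (Oas3 and Rsad2), with a median of 0.79. In the 12 cell samples r ran from 0.20 to 0.94 and in the 12 tumor samples from 0.32 to 0.96. In the 6 4T1 samples alone 35 of 36 pairs were above 0, the lowest at −0.01 (Rsad2 and Samd9l), and Samd9l had r = 0.29 with the mean of the other 8. Over the 24 samples, the members least tied to the mean of the other 8 were Samd9l (r = 0.71) and Ifit2 (r = 0.72). In the 12 cell samples Ifit2 had 0.51 and Samd9l 0.88, and in the 12 tumor samples Samd9l had 0.55 and Ifit2 0.87. These values are a description with no p-value. The libraries that stood apart are part of these correlations.

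The genes outside the list whose values, centred on each experiment, were most like the member mean over the 24 samples were Irf7 (r = 0.94), Ifi44 (0.92), Oasl1 (0.92), Usp18 (0.92), Oas1a (0.92), Rtp4 (0.92), Tapbp (0.90), Parp14 (0.90), Xaf1 (0.89) and Isg15 (0.89), among 9780 genes. Of these 10 genes, 9 are in the interferon lists and Tapbp, which encodes tapasin, is not. Over the 12 cell samples they were Irf7 (0.98), Slc39a10 (0.98), Irf9 (0.98), Rbfox2 (0.98), Ddx58 (0.98), Tapbp (0.98), Oasl1 (0.97), Helz2 (0.97), Parp14 (0.97) and Zcchc24 (0.96), of which 6 are in the lists. The 2 sets shared 4 genes. Centring on groups kept 6 of the 10 genes of the 24-sample set, and the 12 tumor samples kept 3. The cell samples without the shCtrl libraries numbered 2 kept 0 of the 24-sample set and 4 of the 12-sample set, so these names rest in part on those 2 libraries.

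In 4T1 tumors 0 of 53 marker genes tested passed by limma, as 0 of 11467 genes did, while 27 of 53 had an unadjusted p under 0.05, against 6.27% of all genes, and the sums of 5 of 11 marker lists did not overlap between C44 and 3B10. Summed levels, off the log scale and above the lowest value of each sample, are given for each list. The 6 of 6 leukocyte markers summed to 1079, 1064 and 1049 with C44 and 842, 916 and 662 with 3B10, with Laptm5 the most abundant. The 10 macrophage and monocyte markers of 11 listed summed to 4723, 4573 and 5050 and to 3142, 4553 and 2902, with C1qa the most abundant, and 9 of 12 T and NK cell markers, led by Nkg7, to 180, 207 and 224 and to 158, 106 and 42.5. These 3 lists were lower with 3B10 with no overlap. The 8 of 8 epithelial markers, led by Krt18, summed to 3293, 3593 and 3570 and to 5083, 4750 and 5266, and 3 of 4 skeletal muscle markers, led by Tnnt3, to 9.99, 10.8 and 23.9 and to 32.2, 137 and 232, both higher with 3B10 with no overlap. Group means of the lists that overlapped were 1444 and 1014 for 6 of 8 neutrophil markers (1953 in C44 tumor 3, against 1183 and 1195), 53.8 and 42.2 for 2 of 7 dendritic cell markers, 1.55 and 0.06 for Pax5 as 1 of 5 B cell markers (4.61 in C44 tumor 3, against 0.04 and 0), 1092 and 1715 for 6 of 6 fibroblast markers (3079 in 3B10 tumor 2, against 801 and 1265), 123 and 97.2 for 3 of 5 endothelial markers and 31.2 and 28.8 for 2 of 4 adipocyte markers. Single tumors carry the direction for Pax5 and fibroblasts. They also do for endothelium (189 in C44 tumor 2, against 75.6 and 105) and adipocytes (38.3 and 45.7 in C44 tumors 2 and 3, against 9.68). The part of these cell types in the member values was not tested.

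In *MMTV-PyMT* tumors the 11 marker lists overlapped between C44 and 3B10. By limma 0 of 46 marker genes tested passed and 2 had an unadjusted p under 0.05, against 2.7% of all genes. Leukocyte markers summed to 416, 383 and 399 with C44 and 470, 337 and 391 with 3B10, with group means of 399 and 400 CPM. Lcp1, with a mean of 284 CPM, made up most of this sum, and 3 of the 6 markers had a lower mean with 3B10. C44 tumor 3, the tumor with the highest member values, had the lowest sums of its group for macrophages (429, against 678 and 812), fibroblasts (856, against 1607 and 2338) and epithelium (3811, against 5728 and 5535). It was also lowest for neutrophils (6.55, against 24.9 and 37.2), dendritic cells (17.0), endothelium (73.4), adipocytes (6.24) and skeletal muscle (5.60). Its leukocyte, T and NK cell and Pax5 values were not the lowest. In 3B10 tumor 1, with the lowest member values, leukocytes (470) and macrophages (725) had the highest sums of their group. That tumor was also highest for neutrophils, dendritic cells, fibroblasts, adipocytes (63.2) and Pax5. Its sums for T and NK cells, epithelium, endothelium and skeletal muscle lay between those of the other 3B10 tumors. Group means with C44 and 3B10 were 640 and 613 for macrophages, led by Cd14, 22.9 and 17.1 for neutrophils, 22.8 and 18.7 for dendritic cells, 6.52 and 5.64 for T and NK cells, and 5024 and 4501 for epithelium, led by Krt8. They were 1600 and 1282 for fibroblasts, 97.6 and 104 for endothelium, 12.5 and 27.8 for adipocytes (63.2 in 3B10 tumor 1, against 13.3 and 7.07), 13.7 and 7.12 for skeletal muscle (25.2 in C44 tumor 1, against 10.4 and 5.60) and 0.04 and 0.14 for Pax5. Single tumors carry the direction for leukocytes, macrophages, neutrophils, T and NK cells, fibroblasts, endothelium, adipocytes and Pax5. The part of these cells in the member values was not tested.

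In the cultured lines Krt8 was the most abundant epithelial marker (96.9 CPM in E0771 and 316 CPM in E0771-LG), while Krt19 and Krt5 were at the lowest value in every E0771 sample. Of the macrophage markers, Cd68 was the most abundant in E0771 (7.68 CPM) and Cd14 in E0771-LG (12.7 CPM), where 3 of 3 tested genes passed, 2 of them lower. Itgam, C1qa and C1qc were at the lowest value in every E0771 sample, and Adgre1, C1qa, C1qb and C1qc in every E0771-LG sample. T and NK cell markers summed to at most 0.93 CPM in an E0771 and 5.60 CPM in an E0771-LG library. Leukocyte markers summed higher without overlap with shPTN, with group means of 21.9 and 56.8 CPM in E0771, where 3 of 3 tested genes passed, and of 164 and 199 CPM in E0771-LG, where 2 of 3 passed and 1 of 3 had a lower mean. Pax5, the B cell marker in the table, fell in both lines, from 66.7 to 51.5 CPM and from 84.7 to 39.8 CPM. In E0771-LG the epithelial sums were 176 and 502 CPM, with 3 of 3 tested genes passing. Fibroblast markers, led by Pdgfra, summed to 66.0 and 164 CPM with shCtrl and shPTN in E0771 and to 110 and 62.5 CPM in E0771-LG, with no overlap in either line, though 2 of 5 tested fibroblast markers had a higher mean with shPTN in E0771-LG. In E0771-LG the macrophage (23.0 and 15.0 CPM), neutrophil (27.3 and 12.4 CPM, led by Mmp9), adipocyte (13.8 and 2.72 CPM, led by Fabp4) and skeletal muscle sums (3.28 and 1.39 CPM) were lower with shPTN without overlap, and that of T and NK cells (1.69 and 4.28 CPM) was higher. Of the 2 neutrophil markers tested in E0771-LG, only 1 had a lower mean with shPTN. In E0771 skeletal muscle markers summed to 0.23 and 0.97 CPM without overlap, and the macrophage (18.5 and 10.5 CPM), neutrophil (8.16 and 6.40 CPM), dendritic (13.0 and 9.90 CPM), T and NK cell (0.70 and 0.35 CPM), epithelial (107 and 108 CPM), endothelial (1.74 and 1.98 CPM) and adipocyte sums (1.48 and 1.61 CPM) overlapped. So did the dendritic (7.18 and 5.96 CPM) and endothelial sums (1.82 and 2.73 CPM) of E0771-LG. Their part in the member values was not tested.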

How the data were processed

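RNA from 24 samples in 4 experiments (3 control and 3 PTN-inhibited samples each) was analysed. The authors used Hisat2 against mm10, counted reads per gene with featureCounts and tested with edgeR. The authors deposited log2 values for 12091 genes; the step that made them is not stated. In 18 samples the deposited log2 values are log2 CPM with 0.5 reads added, since 100% came out as whole reads (tolerance 0.02), giving 15.6 to 21.1 M reads. The 4T1 log2 values lack such steps and were treated as normalized for gene length. Because the values were already log2, limma 3.58.1 in R 4.3.3 replaced the planned count pipeline. Each experiment was fitted alone (lmFit, eBayes with trend and robust, Benjamini-Hochberg adjustment, threshold 0.05), over genes with a value above the lowest of the sample of at least 1, off the log scale, in at least 3 of 6 samples. Both cell lines were fitted together, as 12 samples, for the difference between lines. The test was checked on simulated data, but the outcome is not given here and no result is based on it. Figures used Python 3.11.15, numpy 2.4.6 and matplotlib 3.10.9.

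The members and the 7 pathway and 11 marker lists were chosen with earlier results of these data known. The genes named are the members, Ptn, up to 4 passing genes of largest change per pathway list and experiment (or up to 2 of highest mean where none passed), the 10 genes most like the members, and the most abundant marker of a list; of the passing pathway genes, those whose pass was lost without 1 library are described in the text by count, apart from Ifi47. Values of 1 pathway gene are not reported here. Alternatives were no filter, a filter at 5, pseudocounts of 1 and 0.1, eBayes that was not robust, quantile normalization, scaling by median of ratios, voom on recovered reads, the replicate number as a block, 1 fit of both lines, a threshold of 0.01 and leaving out each sample. Chosen after seeing the data were the fits without 2 libraries: *MMTV-PyMT* 3B10 tumor 1 with C44 tumor 3, and the shCtrl libraries numbered 2.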

Additional observations from a re-analysis of the deposited data

Results flagged for a closer look

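The shPTN effect on Ifit2 differed between the cell lines by −1.51 (E0771-LG minus E0771, log2), by the limma interaction term, in the samples whose effects chose this gene, so it is no independent test. The same term, on genes named for their change in 1 of these lines, gave a difference of 2.08 for Irf8, −0.74 for Trim25, 0.93 for Irf3, −0.57 for Jak1 and −2.10 for Ifi47. The limma threshold of this term was met by 1 of 9 members, against 34% of all genes. Ifi47 no longer met it in 7 of the 12 fits without 1 library. Oasl2 was higher in each 3B10 tumor than in each C44 tumor of the 4T1 model (0.35) and lower in each of the *MMTV-PyMT* model (−1.04), and the difference between the models was not tested.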

How the results depend on the processing

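Of 391 values (each member in each experiment, Ifit2 for the difference of the shPTN effect, and Ifit2 and Ifih1 for shCtrl cells) under an alternative other than leaving out 1 sample, 363 kept their direction and their side of the threshold, 20 lost the pass, 3 gained it and 5 changed direction, all 5 in a fit without 2 tumors. Outside these, quantile normalization changed the direction of Ifih1 for the difference of the shPTN effect and of Oasl2 for shCtrl cells, as did a pseudocount of 1 for Oasl2, and leaving out both shCtrl libraries numbered 2 that of Cmpk2 and Ifit3 for shCtrl cells. Scaling by median of ratios or quantiles moved the median log2 fold change of all genes most in *MMTV-PyMT* (−0.0493). In *MMTV-PyMT*, the fit without 3B10 tumor 1 and C44 tumor 3, chosen after seeing the data, gave a member median of 0.0541 and changed the direction of Oas3 (0.19), Cmpk2 (0.23), Ifit3 (0.0659), Ifih1 (0.0541) and Samd9l (0.13). In E0771, 3 members and 10 pathway genes passed with both lines in 1 fit, and 4 and 12 at a threshold of 0.01. In E0771-LG, 38 pathway genes passed with both lines in 1 fit, where 50% of all genes did. At 0.01, 3 members and 10 pathway genes passed in that line, where 29.0% of all genes did. Under quantile normalization 2 members passed for the difference of the shPTN effect (Ifit3 added) and 0 for the shCtrl cells (0 unadjusted by limma), where Ifit2 was −0.28 and Ifih1 −0.47. The cause of these changes was not tested. With voom, 6 members passed in E0771 (Rsad2 lost) and 5 in E0771-LG (Oasl2 and Rsad2 lost). With no filter, 5 members passed in E0771 (Rsad2 and Ifih1 lost). With the filter at 5, Ifit3 could not be tested in either line. Centring on groups kept 6 of the 10 genes most like the members, the tumor samples 3 and the cell samples without the shCtrl libraries numbered 2 kept 0, and 8 members held the motif with 1 mismatch.

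With the replicate number as a block, 6 members passed in E0771 (Oas3 lost), 8 in E0771-LG and 0 in the tumors, and 39 pathway genes in E0771-LG. In 4T1 the numbers of 3B10 tumors 1 and 2 could be interchanged. Deviations of same-numbered samples correlated across genes with a mean r of 0.03 for E0771, 0.09 for E0771-LG, −0.05 for 4T1 and 0.10 for *MMTV-PyMT*.

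Each sample was left out in turn, which leaves 2 samples in an arm. In E0771, 13 (without shCtrl 3) to 27 (without shCtrl 1) pathway genes passed, where 11.2% and 18.8% of all genes did. In E0771-LG, 4 (without shPTN 1) to 8 (without shCtrl 1) members passed, where 41.2% and 49.3% of all genes did. The counts were 0 to 3 members for shCtrl cells and 1 to 2 for the difference of the shPTN effect. Differences ranged in 4T1 from −0.41 to 0.36 for Oas3, −0.38 to 0.16 for Rsad2, −0.0129 to 0.56 for Cmpk2, −0.14 to 0.33 for Ifit3 and −0.0730 to 0.0261 for Samd9l, and in *MMTV-PyMT* from −0.60 to 0.0145 for Cmpk2. Depth limits Ifit3 in E0771-LG shPTN (10 to 22 reads) and Oas3 in *MMTV-PyMT* 3B10 tumor 1 (16 reads), and is unknown for 4T1.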
